A study of Mus musculus with 6 samples.

Results

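The genes described here encode 9 integrin subunits of epithelial cells, in the submandibular gland of ovariectomized mice. They were chosen by name, in 2 arms. The laminin receptor arm holds Itga2, Itga3, Itga6, Itgb1 and Itgb4, and the TGFβ-activating arm holds Itgav, Itgb5, Itgb6 and Itgb8. All 9 were found among the 19505 named genes of the arrays, with 1 probe set each. Female BALB/c mice underwent either bilateral ovariectomy (OVX, 3 mice) or sham surgery (Cont, 3 mice), and RNA of the whole gland was taken 8 weeks later, at 14 weeks of age. Each mouse gave 1 Clariom S array, a one-colour platform that reports 1 log2 intensity for a probe set. Splice forms of a subunit therefore share a value. OVX removes the ovaries and all that they secrete, so the model is not one of estrogen loss alone.

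Integrins are receptors made of an α and a β subunit that span the cell membrane and tie the extracellular matrix to the cytoskeleton. In glandular epithelium, the subunits of the laminin receptor arm hold cells on the basement membrane. The α6 subunit pairs with β4 in hemidesmosomes, the anchoring junctions that bind laminin-332 outside and keratin filaments inside, and it pairs with β1 in focal contacts. The αv subunit pairs with β5, β6 or β8 and binds the short peptide motif RGD in matrix proteins. The latent peptides that hold TGFβ1 and TGFβ3 inactive carry an RGD motif, by which αvβ6 and αvβ8 free or expose the cytokine. That of TGFβ2 lacks this motif.

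The promoters of Itgb6, which rose in the OVX glands, and of Itgb5, another β partner of αv that did not pass the test, are shown to set them side by side. The RefSeq windows (build GRCm38.p6) run 5′ to 3′ from 250 bases before to 50 bases after the start site. That of Itgb6, the first of 2 listed, lies at chr2:60722554-60722853 on the minus strand and that of Itgb5 at chr16:33829415-33829714 on the plus strand. Capitals mark matches of the SMAD box CAGAC on either strand.
Itgb6: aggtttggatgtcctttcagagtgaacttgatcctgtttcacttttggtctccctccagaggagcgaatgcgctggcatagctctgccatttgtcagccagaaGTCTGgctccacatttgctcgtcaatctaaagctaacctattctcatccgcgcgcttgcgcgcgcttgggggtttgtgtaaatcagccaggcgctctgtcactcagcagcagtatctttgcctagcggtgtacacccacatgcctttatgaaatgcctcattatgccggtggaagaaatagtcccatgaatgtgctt
Itgb5: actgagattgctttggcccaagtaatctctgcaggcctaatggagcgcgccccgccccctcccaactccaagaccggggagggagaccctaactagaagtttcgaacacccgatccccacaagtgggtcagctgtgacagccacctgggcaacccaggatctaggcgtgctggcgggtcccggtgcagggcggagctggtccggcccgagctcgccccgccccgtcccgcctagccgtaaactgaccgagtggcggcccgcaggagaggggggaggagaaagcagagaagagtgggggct
The Itgb6 window held 1 SMAD box and the Itgb5 window held 0. The second Itgb6 window held 0, and among the subunits that did not pass, Itgb8 held 1, Itgav 0, Itga2 and Itgb1 3 each, and Itga3 1 in the first of its 2 windows and 0 in the other. Such a box was present in 49.6% of all 32851 windows of this length, so its presence is common. The AP-1 site TGANTCA (7.81% of windows) and the TEAD site GGAATG (14.7%), searched on both strands, had no match in either window. A match is a stretch of letters and not a known binding site. Windows were listed for 7 of the 9 genes, and the set used here held none for Itga6 or Itgb4.

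The arrays were alike in scale, with lower quartiles between 3.77 and 3.86 on the log2 scale. The values carry no detection calls, and precision is limited by having 3 arrays a group. Over all genes, limma called 2.57% higher and 1.07% lower in OVX (3.63% in all) at an adjusted p under 0.05, with Benjamini-Hochberg adjustment over all named probe sets. The median change over all genes was −0.02. Against this background, 2 of the 9 integrin subunits were called higher, Itga6 in the laminin receptor arm and Itgb6 in the TGFβ-activating arm. None was called lower by limma. At an unadjusted p under 0.05 limma had 4 of the 9 higher, against 8.24% of all genes, and 0 lower, against 7.59%. The methods' t-test with Benjamini-Hochberg adjustment also called 0 lower, and at an unadjusted p under 0.05 it had 1 lower. At that same threshold it had 1 subunit of each arm higher, and the 1 lower was in the laminin receptor arm. The matching shares of all genes by that test are not given here. All changes are OVX minus Cont on the log2 scale.

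Itga6, the α subunit of α6β1 and α6β4, was the most changed of the 9. Its log2 intensity was 9.17, 8.84 and 9.06 in OVX glands, against 8.24, 8.09 and 8.15 in Cont glands. Every OVX array lay above every Cont array, with 0.61 between the nearest values. The mean was 9.02 ± 0.16 in OVX and 8.16 ± 0.08 in Cont (SD, n = 3 mice each), a 1.82-fold rise (log2 change 0.86 ± 0.14, standard error, with an adjusted p of 0.00519 by limma). The call held without any 1 array, with an adjusted p of at most 0.0346, but not in the methods' t-test (adjusted p = 0.0881).

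The partners of α6 did not show a rise of that size. Itgb4, whose long cytoplasmic tail links hemidesmosomes to keratin, had 6.97, 7.13 and 6.97 in OVX glands, against 7.18, 7.34 and 6.72 in Cont glands. The OVX values lay inside the Cont range, and the change was −0.06 (standard error 0.17, limma adjusted p = 0.907). Its 95% interval ran from −0.44 to 0.32. Its sign rested on 1 array, since the change was 0.071 without Cont replicate 2.

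Itgb1 is the shared β subunit of the α2, α3 and α6 laminin and collagen receptors and can also pair with αv. Its values were 8.78, 8.41 and 8.45 in OVX glands, against 8.28, 8.02 and 8.32 in Cont glands. The OVX arrays all lay above the Cont arrays, but by as little as 0.09. The change of 0.34 did not pass over all genes (standard error 0.15, limma adjusted p = 0.315), and its 95% interval ran from 0.00 to 0.68.

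Itga3 forms with β1 a receptor for the laminins of epithelial basement membranes. It had 6.49, 6.54 and 6.44 in OVX glands, against 6.65, 6.86 and 6.67 in Cont glands. All OVX values lay below all Cont values. The change of −0.24 did not pass (limma adjusted p = 0.430, standard error 0.13), with a 95% interval from −0.53 to 0.05.

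Itga2, whose pair with β1 binds collagen and some laminins, gave a weak signal. Its values were 4.08, 3.73 and 4.11 in OVX glands, against 3.65, 3.67 and 3.42 in Cont glands. All Cont values and OVX replicate 2 lay below the lower quartile of every array, where a low signal cannot be told from background. The change of 0.39 did not pass (limma adjusted p = 0.228, standard error 0.15), with the groups 0.06 apart.

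**Figure D1:**
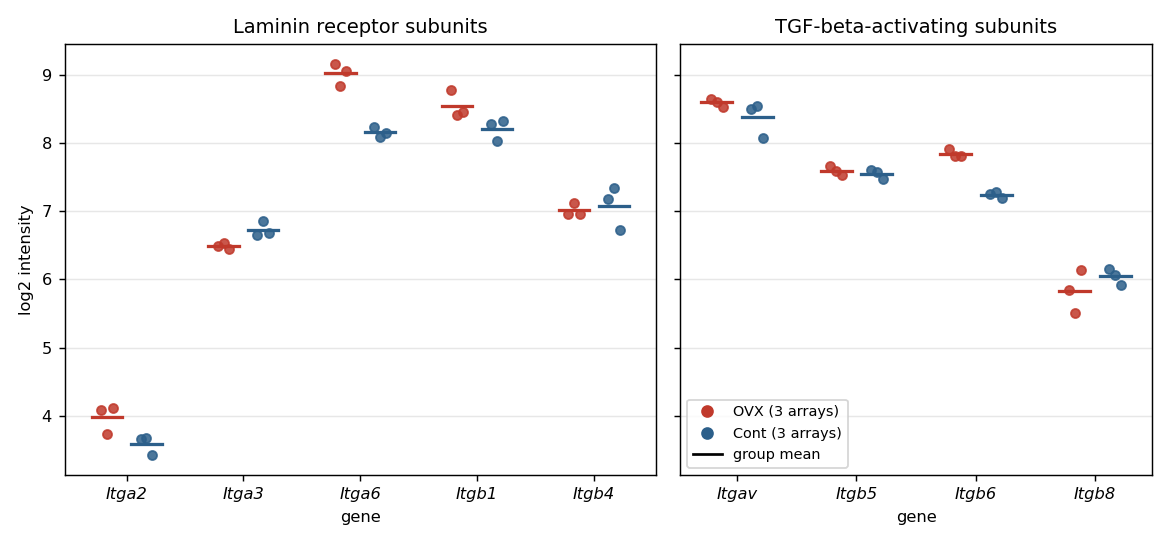
Log2 intensity (vertical axis) of each integrin subunit on each array, with 3 OVX arrays left of 3 Cont arrays for each gene and a bar at each group mean. The OVX points of Itga6 and Itgb6 stand apart above the Cont points, by 0.61 and 0.53 at the nearest, while those of Itgb4, Itgav, Itgb5 and Itgb8 overlap.

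In the TGFβ-activating arm, Itgb6 was the subunit that rose. The β6 subunit is made in epithelial cells, pairs only with αv and is known for low levels in resting epithelium and higher ones during repair. Its log2 intensity was 7.91, 7.81 and 7.81 in OVX glands, against 7.25, 7.28 and 7.19 in Cont glands. The groups were 0.53 apart at their nearest values. The mean was 7.84 ± 0.06 in OVX and 7.24 ± 0.05 in Cont (SD, n = 3 mice each), a 1.52-fold rise (log2 change 0.60 ± 0.13, standard error, with an adjusted p of 0.0248 by limma). The size of the change varied little when an array was left out, from 0.57 to 0.62, but the call was lost each time. The adjusted p was then 0.0619 without OVX replicate 2, 0.0632 without Cont replicate 2, 0.0676 without Cont replicate 3, 0.0688 without Cont replicate 1, 0.0792 without OVX replicate 3 and 0.116 without OVX replicate 1. At the study's own threshold on fold (1.5 or more) and on unadjusted p (0.05 or less), here with limma, Itga6 and Itgb6 passed as higher and 0 of the 9 as lower, against 3.28% higher and 1.71% lower of all genes.

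The α subunit that β6 needs did not show a change of that size. Itgav had 8.65, 8.61 and 8.53 in OVX glands, against 8.50, 8.55 and 8.08 in Cont glands. The lowest OVX value lay just below the highest Cont value. The change of 0.22 did not pass (limma adjusted p = 0.543, standard error 0.16), and it was 0.071 without Cont replicate 3, the lowest of the Cont arrays.

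Itgb5 and Itgb8, the other β subunits of this arm, did not pass. Itgb5, part of a vitronectin receptor that can free TGFβ when cells contract, had 7.66, 7.59 and 7.53 in OVX glands, against 7.61, 7.57 and 7.47 in Cont glands. The groups overlapped almost fully. Its change was 0.04 (standard error 0.13, limma adjusted p = 0.908) with a 95% interval from −0.24 to 0.33, and it was −0.014 after quantile normalization between the arrays. Itgb8, whose pair with αv presents TGFβ held on a cell surface, had 5.84, 5.50 and 6.13 in OVX glands, against 6.16, 6.07 and 5.92 in Cont glands. OVX replicate 3 lay among the Cont arrays. The change was −0.22 (standard error 0.17, limma adjusted p = 0.589), with a 95% interval from −0.60 to 0.16. It was −0.059 without OVX replicate 2 and −0.37 without OVX replicate 3.

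Of the 9 subunits, 5 did not overlap between the groups, where 21.4% of all genes did not. These were Itga6, Itgb6, Itgb1 and Itga2 above the Cont arrays, as in 10.7% of all genes, and Itga3 below them, as in 10.6%. Set side by side, the changes of the 2 arms overlapped. The median change was 0.34 in the laminin receptor arm and 0.13 in the TGFβ-activating arm, a difference of 0.21 that was not tested. By means, these were 0.26 and 0.16. Without Itga2 and Itgb1, which have ligands or partners outside the arm, the laminin receptor median was −0.06 and the difference was −0.19. The difference was also 0.066 without Cont replicate 2 and 0.12 without OVX replicate 1. Each arm thus held 1 subunit that rose, 1 or 2 with a change below 0, and others in between.

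**Figure D2:**
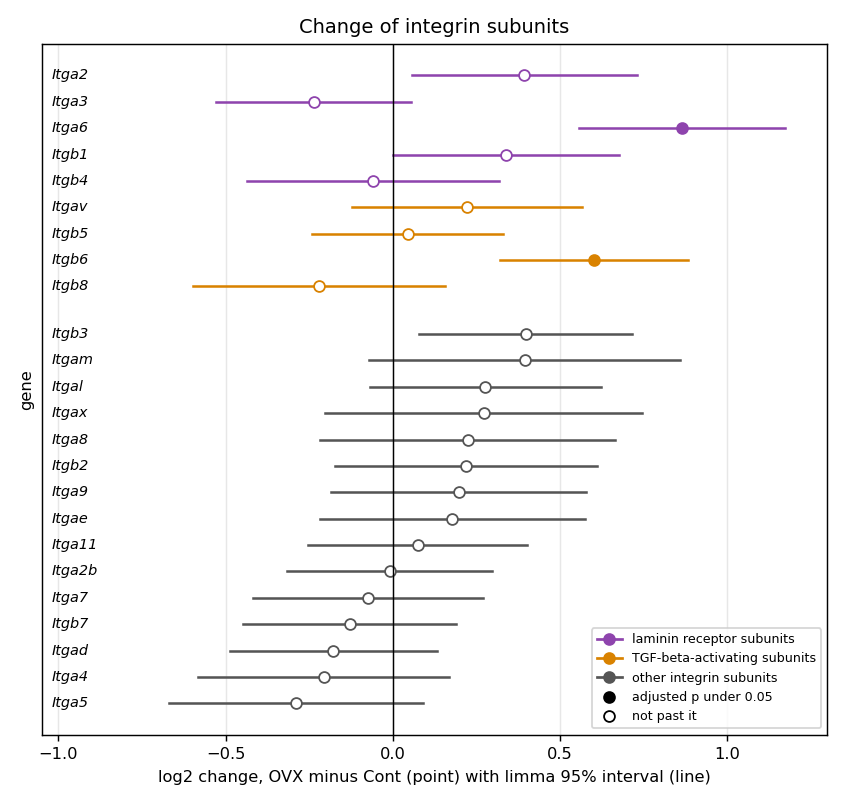
Log2 change, OVX minus Cont (horizontal axis, points), of the 9 integrin subunits and, below them, of 15 other integrin subunits, with limma 95% intervals as lines. Filled points passed an adjusted p under 0.05, which are Itga6 at 0.86 and Itgb6 at 0.60.

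RNA of the whole gland comes from several cell types, and fewer cells of a type cannot be told apart from less RNA per cell. The glands had strong signal of the acinar genes Prol1 and Pip, both above 12.6 on every array. That is near the top of the scale, since the highest value of an array was 12.95 to 13.06. Another acinar marker, Smr3a, was weak, at 3.03 to 3.67 on all arrays. Markers of several cell types differed between the groups. Of 7 myoepithelial and smooth muscle markers 5 rose, and their mean level on an array was 7.85 to 7.92 in OVX, against 6.45 to 6.60 in Cont. Of 7 basal duct markers 2 rose, with mean levels of 5.23 to 5.50 in OVX, against 4.85 to 5.02 in Cont, while one of them, Dsg3, stayed between 2.26 and 2.41 on all arrays. Of 6 duct markers 1 rose, with mean levels of 7.69 to 7.82 in OVX, against 7.43 to 7.55 in Cont. Of 4 granular duct markers 3 rose, with mean levels of 12.62 to 12.67 in OVX, against 10.55 to 11.18 in Cont. Of 5 fibroblast markers 4 rose, with mean levels of 7.70 to 7.81 in OVX, against 6.30 to 6.90 in Cont. In these 5 lists limma called 0 lower, and before adjustment 1 marker of basal duct had a lower value at a p under 0.05 by limma and 1 of granular duct by the methods' t-test. Of the 7 acinar markers 0 passed by either test after adjustment, with 1 higher and 3 lower at an unadjusted p under 0.05 by limma (0 and 2 in the methods' t-test). The higher one was Bpifa2, with the widest change of the list, 1.06 (limma adjusted p = 0.0583), and no overlap between the groups. The mean levels of the acinar markers, Bpifa2 among them, were 9.87 to 10.09 in OVX, against 10.04 to 10.13 in Cont. Their median change was −0.29. The part of these cell types in the changes of Itga6 and Itgb6 was not tested. Of the markers of endothelial cells (5 genes), leukocytes (4), platelets (4), adipocytes (4), skeletal muscle (4) and nerve (2), 0 passed by limma or by the methods' t-test after adjustment. At an unadjusted p under 0.05 limma had 3 of these higher and 3 lower, and the methods' t-test had 1 higher.

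Because subunits work as pairs, the change of each α subunit was set against that of its β partner on the same array, relative to the mean difference in Cont. This shows unequal change between partners and not which of them a cell has more of. With 3 arrays against 3 an exact permutation p cannot go below 0.1, so the 8 pairs are given as values. Itga6 relative to Itgb4 stood at 1.12, 0.64 and 1.01 in OVX glands, against −0.02, −0.33 and 0.35 in Cont glands, a difference of 0.92 ± 0.25 (standard error). Itga6 relative to Itgb1 stood at 0.44, 0.49 and 0.66 in OVX glands, against 0.01, 0.11 and −0.12 in Cont glands. The α6 transcript thus gained on both of its partners, with no overlap between the groups.

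Itga3 relative to Itgb1 stood at −0.81, −0.39 and −0.53 in OVX glands, against −0.15, 0.31 and −0.16 in Cont glands. The α3 and α6 subunits, which share β1, therefore stood on opposite sides of it relative to Cont. Itgav relative to Itgb6 stood at −0.40, −0.33 and −0.41 in OVX glands, against 0.11, 0.14 and −0.25 in Cont glands, so that β6 gained on αv with no overlap between the groups. Itgav relative to Itgb5 differed by 0.18 ± 0.11 and relative to Itgb8 by 0.44 ± 0.22 (standard errors), the first with groups that did not overlap and the second with groups that did. Itga2 and Itgav relative to Itgb1 differed by 0.06 ± 0.19 and −0.12 ± 0.24 (standard errors), with overlapping groups.

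**Figure D3:**
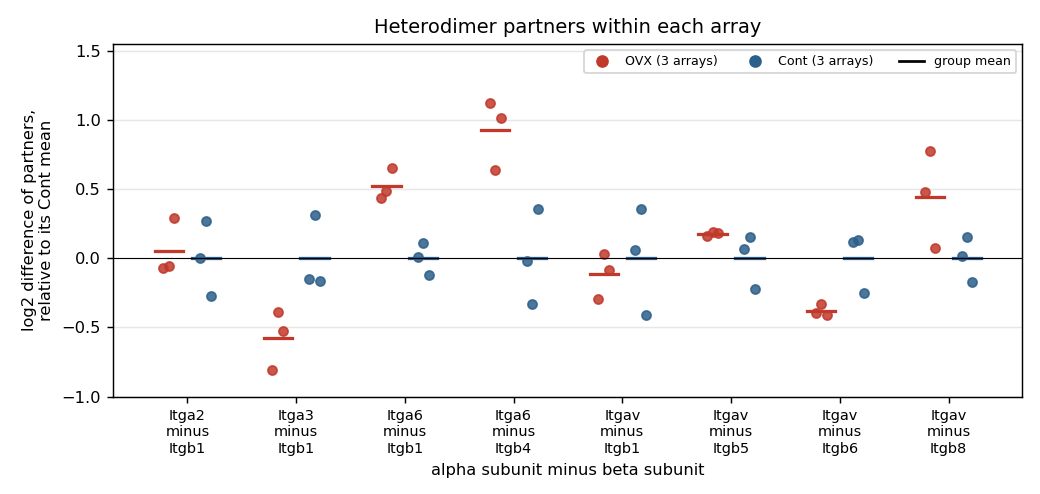
Log2 difference between an α subunit and its β partner on the same array, relative to the Cont mean of that difference (vertical axis), for 8 known pairs, with 3 OVX arrays left of 3 Cont arrays and a bar at each group mean. The OVX arrays lie above the Cont arrays for Itga6 against Itgb4 and Itgb1, and below them for Itga3 against Itgb1 and Itgav against Itgb6.

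The laminin chains are the ligands of the laminin receptor arm. Of 10 measured laminin chains 4 rose, and limma called 0 lower. The median change was 0.57. Before adjustment, 1 chain had a p under 0.05 with a lower value by limma, and 0 did by the methods' t-test. Lamb3, the β chain of laminin-332 that α6β4 and α3β1 bind, had 6.57, 6.52 and 6.75 in OVX glands, against 5.29, 5.06 and 4.81 in Cont glands, with a gap of 1.23 between the groups. It rose by 1.56 ± 0.16 (standard error), with an adjusted p of 0.000190 by limma. Lama3, the α chain of the same laminin, rose by 0.66 ± 0.13 (standard error; adjusted p = 0.0149 by limma), though it missed the threshold without OVX replicate 1 (adjusted p = 0.0698) and without OVX replicate 3 (adjusted p = 0.0655). The others that rose were Lama2, the α chain of muscle and nerve basement membranes, by 1.02 (limma adjusted p = 0.00301), and Lamb2, a β chain of mature basement membranes, by 1.03 (limma adjusted p = 0.00333). These calls and that of Lamb3 held without any 1 array, but not in the methods' t-test, where the adjusted p was 0.106 for Lama2, 0.119 for Lamb2 and 0.0670 for Lamb3. That test kept Lama3 (adjusted p = 0.0330).

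Among the partners of α6β4 in hemidesmosomes, 1 of 5 rose and 0 were called lower, and their median change was 0.47. The one that rose was Krt5, a keratin of basal cells that is also one of the basal duct markers, with 6.81, 6.27 and 6.61 in OVX glands, against 5.75, 5.67 and 5.97 in Cont glands (log2 change 0.77 ± 0.16, standard error, with an adjusted p of 0.0271 by limma). Of the 6 fits without 1 array, this call held only without Cont replicate 3 or OVX replicate 2, and the adjusted p was as high as 0.125 without OVX replicate 1. It was 0.218 in the methods' t-test. Before adjustment, all 5 partners had a p under 0.05 by limma and 3 did by the methods' t-test, each with a higher value in OVX, where limma had 8.24% of all genes higher. None of the other 4 passed after adjustment, and their change was 0.51 for the keratin Krt14, 0.47 for the keratin linker Dst, 0.39 for the collagen Col17a1 and 0.35 for the tetraspanin Cd151, which associates with laminin-binding integrins. The signal of Dst was weak, at 3.20, 3.31 and 3.82 in OVX glands, against 3.23, 2.95 and 2.71 in Cont glands. Its groups overlapped, and a low signal cannot be told from background. Krt14 and Col17a1 are basal duct markers too. Of the other laminin receptors, 0 of 5 passed by limma or the methods' t-test after adjustment. Of these, Rpsa was lower at an unadjusted p under 0.05 by both (log2 change −0.52, limma adjusted p = 0.0584), and it is also a protein of the small ribosomal subunit. The syndecan Sdc4 had a change of −0.28 (limma adjusted p = 0.432).

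The αv integrins act on latent TGFβ. Of 10 genes for the TGFβ isoforms and the proteins that store or release them, 3 rose. None was called lower by limma, though 1 had a lower value at an unadjusted p under 0.05 by each test. The median change was 0.34. Tgfb3, an isoform whose latent peptide carries the RGD motif, had 6.79, 6.63 and 6.83 in OVX glands, against 6.03, 5.62 and 5.93 in Cont glands (log2 change 0.89 ± 0.15, standard error, with an adjusted p of 0.00676 by limma and 0.124 in the methods' t-test). Tgfb1, the other RGD-bearing isoform, had 6.68, 6.67 and 6.89 in OVX glands, against 6.11, 6.46 and 6.34 in Cont glands. The groups did not overlap, but the change of 0.45 did not pass (limma adjusted p = 0.146, standard error 0.15).

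Tgfb2, which has no RGD motif for αvβ6 to bind, had the largest change of the 10 genes, 2.93 (standard error 0.14, limma adjusted p = 1.13e-06), with 9.61, 9.47 and 9.35 in OVX glands, against 6.60, 6.43 and 6.60 in Cont glands. The methods' t-test kept its call (adjusted p = 0.0201). The third called gene was Thbs1, a matrix protein that can free latent TGFβ without an integrin, at 2.77 (standard error 0.15, limma adjusted p = 3.67e-06, and 0.0345 in the methods' t-test). Of the proteins that tether latent TGFβ, Ltbp3 had a change of −0.57 (limma adjusted p = 0.0761), Nrros 0.59 (adjusted p = 0.237) and Lrrc32, which holds TGFβ for αvβ8 on regulatory T cells, −0.15 (adjusted p = 0.763).

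Of 8 other proteins that αv integrins bind, 2 rose. None was called lower by limma. At an unadjusted p under 0.05 each test had 1 with a lower value, but not the same gene. The median change over the 8 was 0.08. The matricellular protein Postn rose by 2.02 ± 0.20 (adjusted p = 0.000188 by limma) and Mfge8, which bridges dying cells to phagocytes, by 0.85 ± 0.19 (adjusted p = 0.0301; standard errors). Of the 6 fits without 1 array, the call of Mfge8 held only without Cont replicate 2, and the adjusted p was as high as 0.123 without OVX replicate 3. Of 8 genes listed as targets of TGFβ, only Col1a1 passed. This collagen chain, also one of the fibroblast markers, rose by 0.65 ± 0.15 (standard error), with an adjusted p of 0.0388 by limma, while the median over the 8 was 0.18 and 0 had a lower value at an unadjusted p under 0.05 by either test. Its call held only without Cont replicate 3 among those 6 fits, with an adjusted p as high as 0.143 without OVX replicate 3. In the methods' t-test the calls of Postn (adjusted p = 0.0946), Mfge8 (0.265) and Col1a1 (0.188) were lost.

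**Figure D4:**
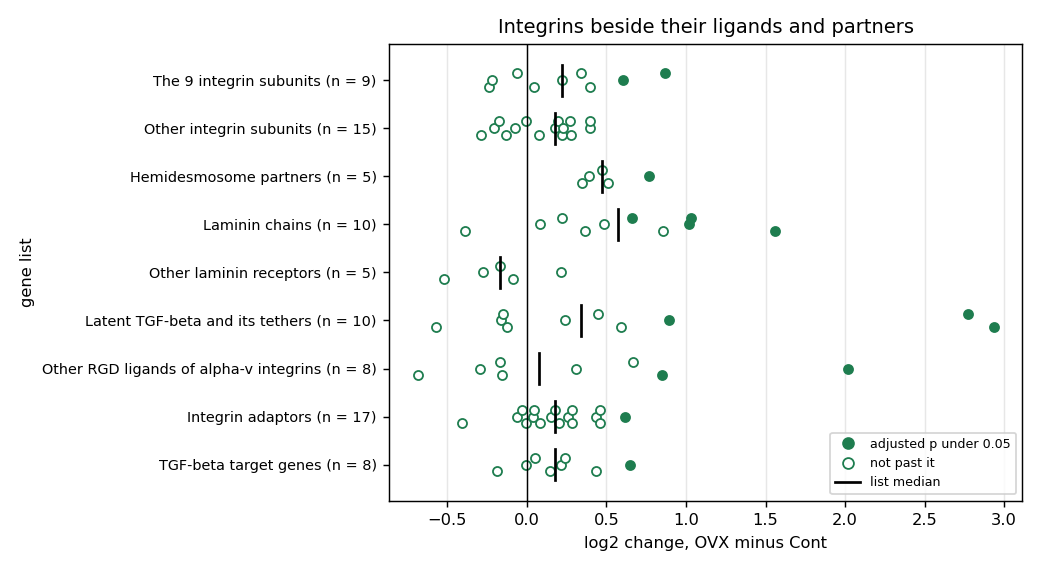
Log2 change, OVX minus Cont (horizontal axis), of each gene in 9 lists, with filled points for an adjusted p under 0.05 from limma and a bar at each list's median. The integrins have a median of 0.22 and the laminin chains one of 0.57, and the points near 3 in the latent TGFβ list are Tgfb2 and Thbs1.

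Of 15 other measured integrin subunits, 0 passed limma's adjusted p and 0 passed the methods' t-test after adjustment, with a median change of 0.18. At an unadjusted p under 0.05, 1 was higher by each test. By limma this was Itgb3, the β subunit of another αv receptor, with 5.54, 5.55 and 5.54 in OVX glands, against 4.93, 5.16 and 5.35 in Cont glands (log2 change 0.40, limma adjusted p = 0.196). The leukocyte subunit Itgam had a change of 0.39 (limma adjusted p = 0.410). Of 17 adaptor proteins that couple integrins to actin, only vinculin (Vcl) passed, with a rise of 0.61 ± 0.14 (standard error) and an adjusted p of 0.0307 by limma. The median over the 17 was 0.18, and 1 had a lower value at an unadjusted p under 0.05 by limma, against 0 by the methods' t-test. Of the 6 fits without 1 array, its call held only without OVX replicate 2, and the adjusted p was as high as 0.132 without OVX replicate 3. It was 0.110 in the methods' t-test. Talin (Tln1), which switches integrins on, had a change of 0.46 (limma adjusted p = 0.125), and the epithelial kindlin Fermt1 one of −0.41 (limma adjusted p = 0.291).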

How the data were processed

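Clariom S arrays of RNA from the submandibular gland of 3 OVX and 3 Cont mice were analysed, 1 array per mouse. The authors deposited 1 table of log2 intensities, made by RMA normalization (SST-RMA per the study's methods, RMA and Affymetrix Power Tools per the submitters' processing notes, for which the sources used here give no version). The base of the logarithm was read from the range of the values. RMA summaries can pull weak signals together, so that changes of dim probe sets may be understated. Whether this holds for the values used here was not tested. Probe sets were named from the platform annotation: 19572 of 22206 had 1 gene symbol, 0 had several and 2634 had none.

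OVX was compared with Cont by limma 3.58.1 in R 4.3.3 (lmFit and eBayes, no covariate). P-values of the 19572 named probe sets were adjusted together (Benjamini-Hochberg), with a call at an adjusted p under 0.05. The probe set with the highest mean stood for each of 19505 genes. The methods' t-test and their threshold (1.5-fold, unadjusted p 0.05) were alternatives. Of 17 listed other integrin subunits, 15 were measured, and the lists of ligands, adaptors, targets and cell type markers lost up to 2 genes each. All 9 integrins were described. Of each list, the genes that passed were named, up to 4, or up to 2 with the smallest p where none passed, with the TGFβ isoforms and Lama3 and Lamb3 whatever their values. Some items under these rules are not reported here. Krt14, Dst, Col17a1, Cd151, Ltbp3, Nrros, Lrrc32, Tln1, Fermt1 and Bpifa2 were chosen after their values were seen. The integrins and the lists were chosen with earlier results of these data known. The fit was tested on simulated data. Other normalizations, filters, moderation of the variance, a replicate block and leaving out each array were tried.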

Additional observations from a re-analysis of the deposited data

How the results depend on the processing

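Over 143 pairs of an integrin subunit and a setting, 133 kept the direction and the side of the threshold, 8 lost a call and 0 gained one. Most of these pairs are of subunits that had no call to lose. The call of Itga6 held in 15 of 16 settings and that of Itgb6 in 9 of 16. Of the 2 integrins called higher, 1 remained with the replicate block, with the methods' t-test and in each fit without 1 array (1 to 1). By the t-test it was Itgb6 (adjusted p = 0.0470), and in the other fits Itga6. With the block, Itgb6 had an adjusted p of 0.0544 by limma. The count called lower was 0 in all settings. The sign changed for Itgb4, 0.071 without Cont replicate 2 (−0.24 to 0.071 over the fits without 1 array), and for Itgb5, −0.014 after quantile normalization. The difference between the arms of 0.21 was −0.19 without Itga2 and Itgb1, 0.10 by means, and 0.066 to 0.28 without 1 array. Over all genes, limma called 709 in either direction, 1104 with a trend and robust moderation, 79 by the methods' t-test, and 382 to 561 without 1 array. The causes were not tested, save that fits without 1 array have fewer samples. Same-numbered OVX and Cont arrays did not deviate together (correlations 0.067, 0.012 and −0.038), so the numbers do not pair the mice, and the block changed the count over all genes to 630. Itga2 was not tested after the dimmest 30% of probe sets were left out. The values hold no background measure, so the weak signal of Itga2 limits its change.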

Other observations

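The 3 genes whose centred profile over the 6 arrays lay nearest to that of Itga6 were Lgr4, a receptor for R-spondins in stem and progenitor cells, Tex10, a nuclear protein, and Cxcl14, an epithelial chemokine. The root mean square difference from Itga6 was 0.0440 for Lgr4, 0.0460 for Tex10 and 0.0627 for Cxcl14, on the log2 scale. Lgr4 had 8.18, 7.93 and 8.16 in OVX glands, against 7.33, 7.08 and 7.17 in Cont glands. It rose by 0.90 (limma adjusted p = 0.00449).

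Among the 3 nearest to Itgb6 were Lamp2, a protein of the lysosomal membrane, and Gas6, a ligand of the TAM receptor kinases, with differences of 0.0411 and 0.0412. Gas6 had 8.35, 8.19 and 8.21 in OVX glands, against 7.63, 7.65 and 7.49 in Cont glands. It rose by 0.66 (limma adjusted p = 0.0187). All profiles share the same 6 arrays, and genes that rose by a like amount lie near each other for that reason alone. The nearest genes were picked by these same values, so a like order of the replicates is part of the choice.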
